A study of Homo sapiens with 8 samples.

Results

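Glycolysis and lactate export were followed through 10 genes of the deposited expression table, chosen by symbol from its 60664 genes, and all 10 were found in all 8 libraries. They cover glucose uptake (SLC2A1, SLC2A3), the first phosphorylation of glucose (HK1, HK2), the steps in between (PFKP, ALDOA, GAPDH, PKM), lactate formation (LDHA) and lactate release (SLC16A3). RNA came from THP-1, an established human monocytic leukemia line that the labels give as wild type in all samples. Parental cells and decitabine-resistant cells were each kept for 6 days with DMSO or with 1 µM decitabine (DAC), a nucleoside that enters replicating DNA and depletes DNA methyltransferases, so that DNA methylation falls. There were 2 replicates in each of the 4 groups, named as biological replicates in the labels. Per the study's methods, the resistant line came from the parental one by months of repeated exposure to lethal doses with recovery in between, and was held free of drug for weeks before use. A single resistant line was sequenced, so what the selection changed and what is peculiar to that line cannot be told apart.

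Glycolysis splits glucose into pyruvate in the cytosol and yields ATP without oxygen. Leukemia cells and activated monocytes often run it fast and reduce much of the pyruvate to lactate, which must leave the cell together with a proton. SLC2A1, HK2, LDHA and SLC16A3 are textbook targets of the hypoxia-inducible factor HIF-1, and LDHA is also one of MYC.

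Values are FPKM, which corrects reads for gene length and library size, so levels can be compared between genes. Reads on genes, rebuilt from the FPKM steps, came to between about 28717842 and 33416782 per library. A gene passed the test here when its adjusted p was under 0.05 in limma, fitted to log2(FPKM + 1) over the 14899 genes that reached 1 FPKM in 2 or more of the 8 libraries. All adjusted p-values below are limma's, with Benjamini-Hochberg adjustment over those genes. For 1 gene alone, an exact two-sided permutation of 2 libraries against 2 gives at best p = 0.333, and the p-values here draw on the spread pooled over genes by limma. All 10 genes exceeded 2 FPKM in every library. Log2 values are differences on that log2(FPKM + 1) scale. The added 1 shrinks changes of genes at a few FPKM more than those of abundant genes. Sizes are therefore not strictly comparable between genes of different level.

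Of the 10 genes, 9 had a promoter entry in RefSeq (GRCh38.p14), here 250 bases before to 50 bases after the annotated start. CpG pairs, the positions at which DNA is methylated, were counted because DAC acts on them. SLC2A1 held 30 CpG, HK2 38, PFKP 31, GAPDH 28, PKM 34, LDHA 29 and SLC16A3 26, against a median of 14 over 35116 promoters of the same length. ALDOA held 10 and HK1 only 1, at the outermost HK1 start, and HK1 has other starts that were not examined. DNA methylation was not analysed here. The motif ACGTG or GCGTG on either strand, the core to which HIF-1 binds, occurred 6 times in LDHA, 3 times in HK2, 2 times in GAPDH and 1 time each in SLC2A1, ALDOA and PKM. No match was found in the windows of HK1, PFKP and SLC16A3, and 48.4% of all promoters held at least 1. The PFKP and SLC16A3 windows begin at chr10:3067720 and chr17:82228185, inside the gene spans given below, and no other starts were examined. These motifs contain CG, and the shares over all promoters were not matched for CpG. CACGTG, the E-box that MYC binds and which contains ACGTG, was found in LDHA (2) and GAPDH (1), and in 7.3% of all promoters. It reads ACGTG on both strands, so each such site counts as 2 of the matches above. Shown are the windows of the transporter with the largest rise under DAC (SLC2A1), of both hexokinases, which differ most in CpG, and of LDHA, which held the most motifs, with CpG in capitals, 5′ to 3′ on the gene's strand. They lie at chr1:42958819-42959118 (minus strand), chr10:69269750-69270049 (plus), chr2:74833877-74834176 (plus) and chr11:18394313-18394612 (plus).
SLC2A1: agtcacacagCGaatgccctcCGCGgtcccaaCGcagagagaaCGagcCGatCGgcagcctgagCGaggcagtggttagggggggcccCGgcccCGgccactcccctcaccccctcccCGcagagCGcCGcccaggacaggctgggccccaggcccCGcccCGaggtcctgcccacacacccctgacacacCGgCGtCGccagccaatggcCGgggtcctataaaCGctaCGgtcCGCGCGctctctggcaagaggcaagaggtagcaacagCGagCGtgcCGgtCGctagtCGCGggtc
HK1: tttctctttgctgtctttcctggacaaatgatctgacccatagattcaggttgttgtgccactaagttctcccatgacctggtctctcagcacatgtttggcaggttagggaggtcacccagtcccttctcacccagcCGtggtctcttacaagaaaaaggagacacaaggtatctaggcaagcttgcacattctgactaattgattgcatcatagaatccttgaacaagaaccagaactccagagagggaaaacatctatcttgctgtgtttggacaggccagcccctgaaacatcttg
HK2: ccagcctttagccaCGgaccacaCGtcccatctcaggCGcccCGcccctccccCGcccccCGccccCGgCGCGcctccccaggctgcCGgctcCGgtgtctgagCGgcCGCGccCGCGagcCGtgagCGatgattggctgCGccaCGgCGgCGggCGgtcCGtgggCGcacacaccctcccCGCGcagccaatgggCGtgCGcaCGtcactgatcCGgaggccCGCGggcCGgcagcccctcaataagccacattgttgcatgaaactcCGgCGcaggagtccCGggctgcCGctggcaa
LDHA: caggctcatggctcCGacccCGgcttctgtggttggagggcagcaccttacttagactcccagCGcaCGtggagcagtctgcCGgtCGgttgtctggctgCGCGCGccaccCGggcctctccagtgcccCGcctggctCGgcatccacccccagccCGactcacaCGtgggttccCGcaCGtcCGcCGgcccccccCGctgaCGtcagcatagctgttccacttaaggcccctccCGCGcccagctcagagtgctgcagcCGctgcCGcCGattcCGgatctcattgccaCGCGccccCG

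In parental cells, DAC raised 8 of the 10 genes and left PFKP short of the test, and it lowered GAPDH, which was instead raised under quantile normalization. Among all genes tested, 33.6% were raised and 24.1% lowered in this comparison. The median change of the 10 genes was 0.72, against 0.06 over all genes tested. In DAC-resistant cells the same dose raised 1 of the 10 genes and lowered 3, where 5.88% of all genes tested were raised and 5.35% lowered. The median change there was -0.12, against 0.01. Leaving out any 1 of the 4 resistant libraries leaves 1 of the 10 past the test there, PKM. Without drug, resistant cells already stood above parental cells in 5 of the 10 genes and below them in 3, beside 31.3% and 26.2% of all genes, with medians of 0.08 and 0.02. All but SLC2A3 averaged at least 5 FPKM, and genes at that level were called more often. Of 7239 such genes, DAC raised 2892 and lowered 2289 in parental cells. In resistant cells DAC raised 1030 and lowered 940 of them. Without drug 3128 were higher and 2033 lower in resistant cells. The 10 genes are described one by one in the order of the pathway, and the comparisons follow.

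**Figure D1:**
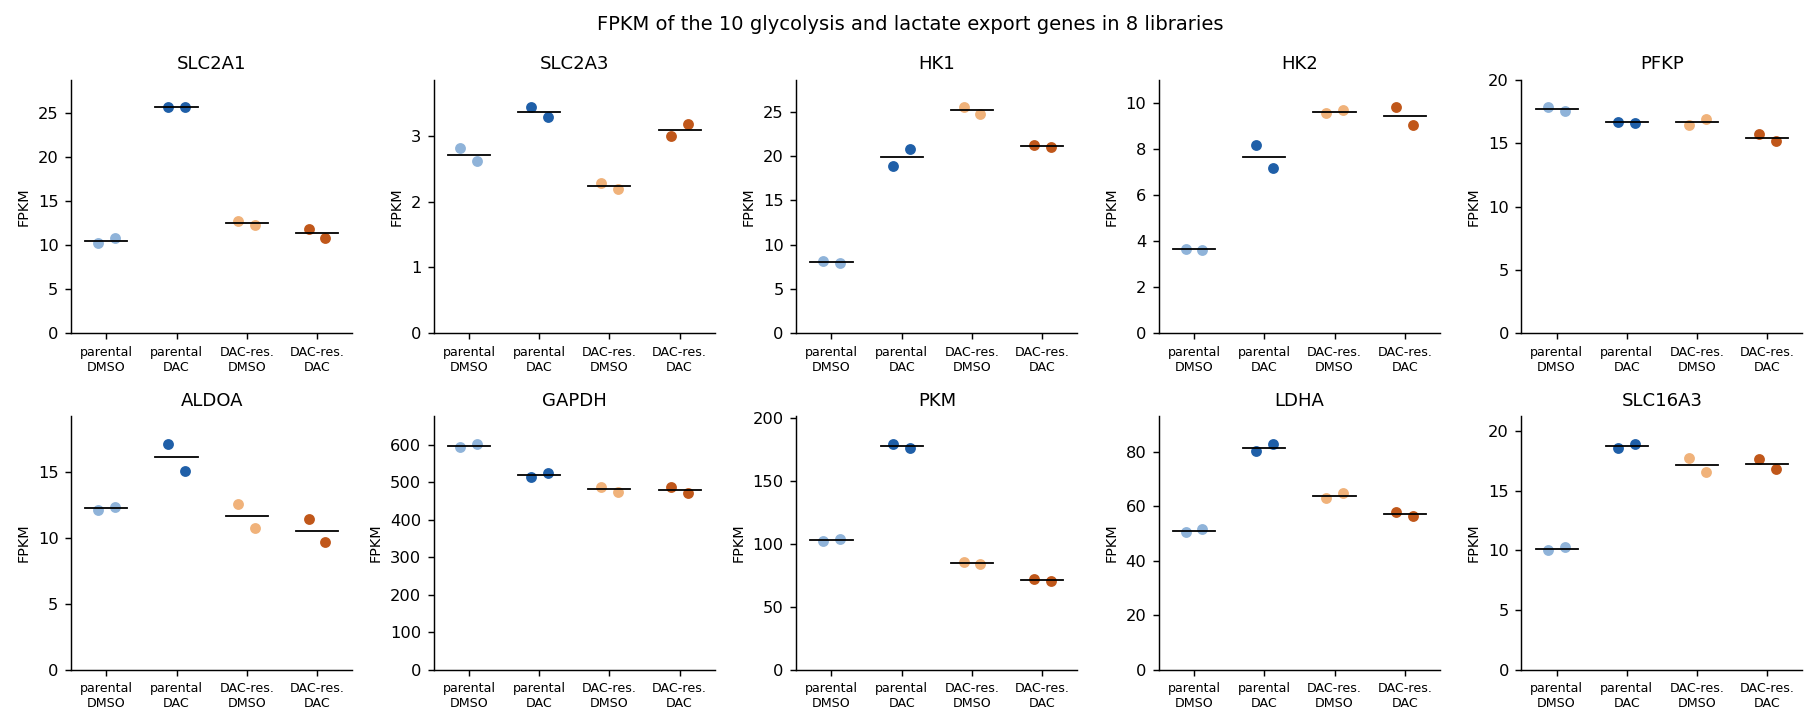
FPKM of each gene in each of the 8 libraries (points, coloured by group) with the group mean (horizontal line, n = 2); every axis starts at 0. SLC2A1 and PKM are highest in DAC-treated parental cells, HK1 and HK2 are lowest in parental cells with DMSO, and GAPDH reaches 603 FPKM while SLC2A3 stays under 4 FPKM.

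SLC2A1 (ENSG00000117394, chr1:42925353-42958893, minus strand) encodes GLUT1, the transporter that brings glucose into most dividing cells. It was at 10.2 and 10.8 FPKM in untreated parental cells and at 25.6 and 25.7 FPKM with DAC. In resistant cells it was at 12.8 and 12.3 FPKM with DMSO and at 11.9 and 10.8 FPKM with DAC. The DAC-treated parental libraries thus stood alone, and the other 6 libraries lay within 3 FPKM of each other. The rise in parental cells was 1.21 ± 0.053 (SE, adjusted p = 5.3e-06). In resistant cells the change with DAC was -0.13 and did not pass (95% interval -0.26 to -0.01, adjusted p = 0.16). The 2 effects differed by -1.35 (adjusted p = 2.6e-05). Without drug, SLC2A1 was higher in resistant cells by 0.23 (adjusted p = 0.0085).

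SLC2A3 (ENSG00000059804, chr12:7919230-8019007, minus strand) encodes GLUT3, a glucose transporter of high affinity found in neurons and leukocytes. Its levels were low, at 2.82 and 2.62 FPKM in parental cells with DMSO and 3.45 and 3.30 FPKM with DAC. In resistant cells they were 2.29 and 2.20 FPKM with DMSO and 3.01 and 3.20 FPKM with DAC. It was the only one of the 10 genes that rose with DAC in both lines, by 0.24 in parental cells (adjusted p = 0.019) and by 0.34 in resistant cells (adjusted p = 0.024). The 2 effects did not differ by the test (0.10, 95% interval -0.12 to 0.32). It was lower in resistant than in parental cells with DMSO (-0.20, adjusted p = 0.038), a call that held in 4 of 17 alternative settings. The rise in parental cells is lost without parental DMSO replicate 2 or parental DAC replicate 1 (adjusted p = 0.097 and 0.084). The rise in resistant cells is lost without any 1 of the 4 resistant libraries (adjusted p between 0.076 and 0.12), and the difference between the lines without any 1 of the 8 libraries (between 0.053 and 0.17). Reads may also be split with its near-identical neighbour SLC2A14, which was listed at 0.829 to 1.23 FPKM and passed in none of these comparisons. The 3 pseudogenes named after SLC2A3 summed to 0 and 0.0891 FPKM in parental cells with DMSO and 0.223 and 0.0495 FPKM with DAC. Their sum was 0 in every resistant library, and the highest sum was 10.1% of the lowest SLC2A3 level.

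HK1 and HK2 encode hexokinases, which trap glucose in the cell as glucose 6-phosphate and can sit on the outer mitochondrial membrane. HK1 (ENSG00000156515, chr10:69269984-69401884, plus strand) was at 8.19 and 7.93 FPKM in parental cells with DMSO and at 18.9 and 20.8 FPKM with DAC. In resistant cells it was at 25.6 and 24.8 FPKM with DMSO and fell to 21.3 and 21.0 FPKM with DAC. The untreated parental cells were the low group, and untreated resistant cells were the high group. HK1 rose with DAC in parental cells by 1.20 ± 0.049 (adjusted p = 4e-06) and was higher in resistant than in parental cells with DMSO by 1.53 ± 0.049 (adjusted p = 1.9e-06). In resistant cells DAC lowered it slightly, with a change of -0.24 (adjusted p = 0.028). That small fall does not pass with any 1 of the 4 resistant libraries left out (adjusted p between 0.086 and 0.14), or with the replicate number as a block (adjusted p = 0.054).

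HK2 (ENSG00000159399, chr2:74834127-74893359, plus strand) is the inducible hexokinase of tumours and activated immune cells. It stood at 3.65 and 3.61 FPKM in parental cells with DMSO and at 8.15 and 7.15 FPKM with DAC. Resistant cells had 9.54 and 9.67 FPKM with DMSO and 9.82 and 9.03 FPKM with DAC, which overlap. Its rise with DAC in parental cells was 0.90 ± 0.067 (adjusted p = 5.8e-05), and resistant cells with DMSO were higher than parental ones by 1.20 (adjusted p = 1.7e-05). HK2 and HK1 had the same order of group means, and the ratio of HK2 to HK1 stayed between 0.344 and 0.462 in all 8 libraries.

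PFKP and ALDOA carry out the committing phosphorylation of fructose 6-phosphate (as the platelet-type phosphofructokinase) and the cleavage of its product (as aldolase A). PFKP (ENSG00000067057, chr10:3066333-3137718, plus strand) had the narrowest range of the 10 genes over the 8 libraries, relative to its level. It was at 17.9 and 17.5 FPKM in parental cells with DMSO, 16.7 and 16.6 FPKM with DAC, and in resistant cells at 16.5 and 17.0 FPKM with DMSO and 15.7 and 15.2 FPKM with DAC. Its changes with DAC did not pass in parental cells (-0.08, 95% interval -0.16 to 0.00, adjusted p = 0.076) or in resistant cells (-0.11, -0.19 to -0.03, adjusted p = 0.10). With values rescaled to TPM, or under upper-quartile or quantile normalization, the fall in parental cells passed (-0.11, -0.19 and -0.20).

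ALDOA (ENSG00000149925, chr16:30064164-30070457, plus strand) was at 12.1 and 12.4 FPKM in parental cells with DMSO and at 17.1 and 15.1 FPKM with DAC. Resistant cells had 12.6 and 10.8 FPKM with DMSO and 11.4 and 9.70 FPKM with DAC, which overlap. The rise in parental cells was 0.37 ± 0.10 (adjusted p = 0.019), the least precise of the 10 estimates. It does not pass without either parental DMSO library or without parental DAC replicate 1 (adjusted p of 0.075, 0.061 and 0.11). Of the ALDOA exon length, 42.8% is shared on the same strand with a longer protein-coding model (ENSG00000285043), itself listed at only 0.295 to 0.589 FPKM. Reads that fall in both models cannot be told apart, so the ALDOA level is uncertain.

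GAPDH (ENSG00000111640, chr12:6534512-6538374, plus strand) encodes the dehydrogenase that makes NADH and is often used as a reference gene. It was by far the most abundant of the 10, at 593 and 603 FPKM in parental cells with DMSO and 514 and 524 FPKM with DAC. In resistant cells it was at 488 and 475 FPKM with DMSO and at 487 and 471 FPKM with DAC, and these 2 groups overlap. The fall with DAC in parental cells was 0.20, from -0.27 to -0.14 (adjusted p = 0.00069), but under quantile normalization the change was a rise of 0.22. Resistant cells with DMSO were lower than parental ones, at -0.31 (adjusted p = 9.9e-05), a direction kept under every scaling run (-0.41 to -0.05 over all settings). Its 65 processed copies elsewhere in the genome summed to at most 9.69 FPKM in a library, or 2.06% of the lowest GAPDH level. An antisense gene that covers 17.6% of the GAPDH exon length was listed at 0 in every library.

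PKM (ENSG00000067225, chr15:72199029-72231819, minus strand) encodes pyruvate kinase, the last and ATP-yielding step, in M1 and M2 forms that gene-level values do not separate. It was at 102 and 104 FPKM in parental cells with DMSO and at 180 and 176 FPKM with DAC. Resistant cells had 85.3 and 84.0 FPKM with DMSO and 72.4 and 70.8 FPKM with DAC. No groups overlap, and the order ran from DAC-treated resistant cells at the bottom to DAC-treated parental cells at the top. PKM rose by 0.78 ± 0.024 in parental cells (adjusted p = 1.3e-06) and fell by 0.24 in resistant cells (adjusted p = 0.0032). Under DAC the 2 lines differed by -1.30 ± 0.024 (adjusted p = 1.4e-07). All 5 PKM calls passed in every setting run with adjusted p-values, including each library left out.

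LDHA (ENSG00000134333, chr11:18394560-18408425, plus strand) encodes the A subunit of lactate dehydrogenase, which turns pyruvate into lactate and restores NAD+. It was at 50.6 and 51.5 FPKM in parental cells with DMSO and at 80.2 and 83.1 FPKM with DAC. Resistant cells had 62.9 and 64.9 FPKM with DMSO and 58.0 and 56.6 FPKM with DAC. The 6 pseudogenes named after LDHA summed to at most 2.64 FPKM in a library, or 5.22% of the lowest LDHA level. The rise in parental cells was 0.67 ± 0.030 (adjusted p = 6.1e-06) and the difference between the lines with DMSO was 0.32 (adjusted p = 0.00016). In resistant cells DAC gave -0.16 (adjusted p = 0.024), which does not pass without any 1 of the 4 resistant libraries (adjusted p between 0.071 and 0.12).

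SLC16A3 (ENSG00000141526, chr17:82217934-82261129, plus strand) encodes MCT4, the lactate exporter of strongly glycolytic cells. It was at 10.0 and 10.3 FPKM in parental cells with DMSO, whereas the other 6 libraries lay between 16.6 and 19.0 FPKM. These were 18.6 and 19.0 FPKM with DAC in parental cells, 17.7 and 16.6 FPKM in resistant cells with DMSO, and 17.7 and 16.9 FPKM in resistant cells with DAC. The rise with DAC in parental cells was 0.83 ± 0.044 (adjusted p = 1.4e-05). Resistant cells with DMSO were higher than parental ones by 0.70 ± 0.044 (adjusted p = 2.9e-05). DAC in resistant cells gave 0.01, with a 95% interval from -0.10 to 0.12. On 5.2% of its exon length SLC16A3 faces CSNK1D on the opposite strand, itself at 9.792 to 12.005 FPKM, and whether the counting used the strand is not stated.

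**Figure D2:**
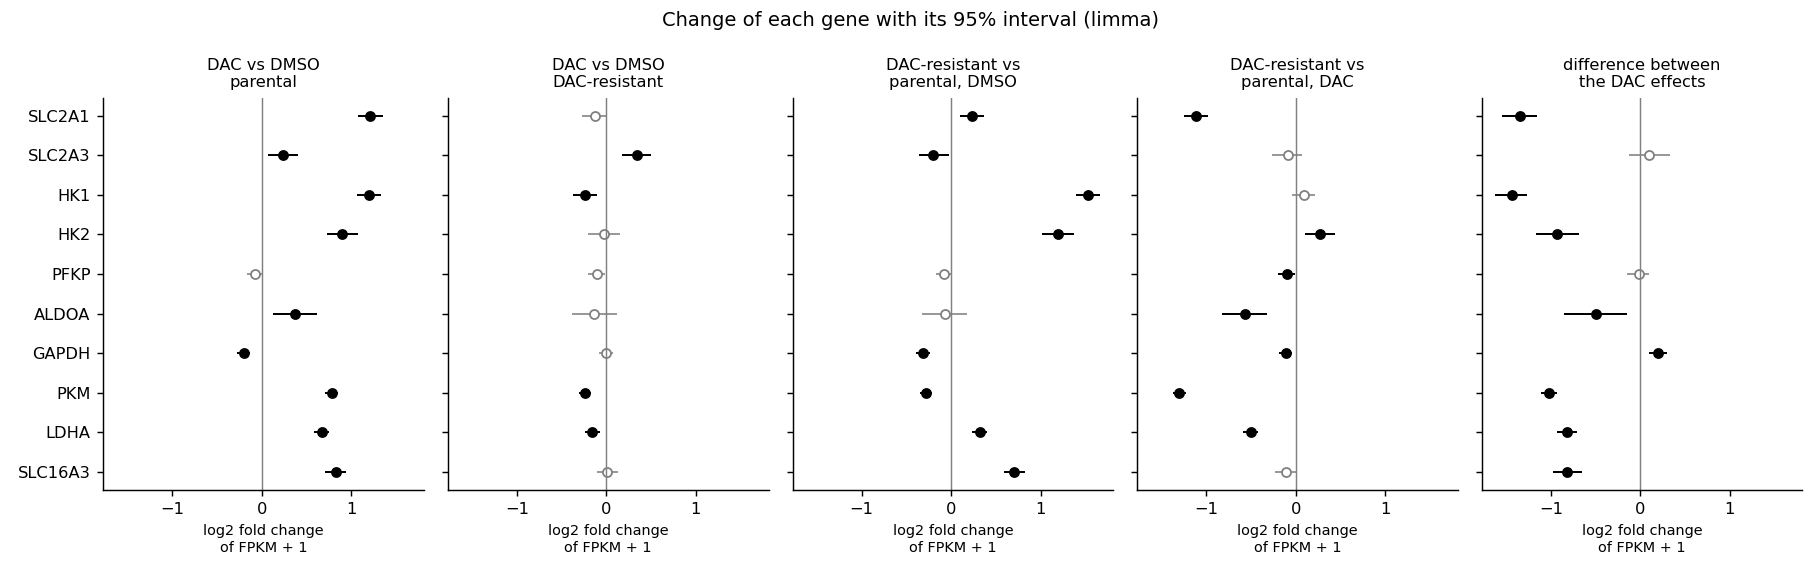
Log2 fold change of FPKM + 1 for each gene (points) with its 95% interval (bars) in the 5 comparisons; filled points passed limma at an adjusted p under 0.05. In parental cells 8 of 10 points are filled to the right of 0, in resistant cells most lie near 0, and the last panel gives the DAC effect in resistant cells minus that in parental cells; the filled GAPDH points in the first and last panel change side under quantile normalization.

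Whether a drug effect differs between the lines was tested as the difference between the 2 DAC effects, resistant minus parental. Of the 10 genes, 7 had a lower effect in resistant cells (HK1, SLC2A1, PKM, HK2, LDHA, SLC16A3 and ALDOA), where 28.4% of all genes tested did. GAPDH alone was higher, at 0.20 (adjusted p = 0.0051), with -0.27 under quantile normalization, and 20.9% of all genes tested were higher. On the log2(FPKM + 1) scale HK1 had the most negative difference, -1.44 ± 0.069 (adjusted p = 1.4e-05). SLC2A1 followed at -1.35 and PKM at -1.02 ± 0.034 (adjusted p = 3.3e-06). HK2 stood at -0.93 (adjusted p = 0.00036), and LDHA and SLC16A3 both at -0.82 (adjusted p = 1.9e-05 and 0.00011). Over the alternative settings HK2 ranged from -1.10 to -0.84 and PKM from -1.22 to -0.91, so these ranges overlap. ALDOA stood at -0.50 (adjusted p = 0.025), which does not pass with 1 of 5 libraries left out, both parental DMSO libraries, parental DAC replicate 1, resistant DMSO replicate 1 or resistant DAC replicate 2 (adjusted p between 0.059 and 0.087). SLC2A3 (0.10) and PFKP (-0.02, 95% interval -0.14 to 0.09) did not pass. The median over the 10 genes was -0.82, against -0.05 over all genes tested.

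The resistant line without drug differed from the parental line in 8 of the 10 genes, 5 higher and 3 lower, where 31.3% of all genes tested were higher and 26.2% lower. HK1 (1.53), HK2 (1.20), SLC16A3 (0.70), LDHA (0.32) and SLC2A1 (0.23) were higher, and GAPDH (-0.31), PKM (-0.28) and SLC2A3 (-0.20) were lower. PFKP (-0.08, adjusted p = 0.084) and ALDOA (-0.07, adjusted p = 0.61) did not pass. This comparison and the DAC effect in parental cells share the 2 parental DMSO libraries, so their values are given side by side only. The signs were opposite, with both values past the test, for PKM (0.78 with DAC and -0.28 in resistant cells) and SLC2A3 (0.24 and -0.20).

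Under DAC, the 2 lines were compared with both groups treated. There 1 of the 10 genes was higher in resistant cells and 6 were lower, beside 32% and 35.1% of all genes tested. HK2 was the higher one, by 0.27 (adjusted p = 0.011), which does not pass without parental DAC replicate 2 (0.19, adjusted p = 0.051) or resistant DAC replicate 1 (0.22, adjusted p = 0.064). PKM (-1.30), SLC2A1 (-1.11), ALDOA (-0.57) and LDHA (-0.50) were lower, each in all settings run with adjusted p-values. GAPDH (-0.11) and PFKP (-0.10) also passed, but with values rescaled to TPM they stood at 0.01 and 0.02, and the PFKP call is lost without either parental DAC library or resistant DAC replicate 2 and the GAPDH call without parental DAC replicate 2. HK1 (0.09), SLC16A3 (-0.11) and SLC2A3 (-0.09) did not pass. The medians were -0.11 for the 10 genes and -0.03 for all genes tested.

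A second rule was taken from the volcano plots. It needs a change of 1 or more in either direction on the log2 scale together with an unadjusted p no higher than 0.01. Here it was applied to limma's values on the log2(FPKM + 1) scale, not to the study's own fold changes. It called fewer of the 10 genes. In parental cells these were SLC2A1 and HK1, where 9.31% of all genes tested were called. In resistant cells none was, where 0.235% were called, and at an unadjusted p under 0.05 without a size limit there were 6 of the 10 in limma, beside 27% of all genes tested. Between the lines, HK1 and HK2 were called with DMSO (8.73% of all genes) and PKM and SLC2A1 with DAC (14.5%). For the difference between the DAC effects HK1, SLC2A1 and PKM were called, beside 10.6% of all genes. HK2 was not called with DAC in parental cells, at 0.90 on that scale, although its mean FPKM rose 2.11-fold.

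The 10 genes together held a small share of each library, and GAPDH was most of it. Their summed FPKM without GAPDH was 217 and 221 in untreated parental cells, 368 and 367 with DAC, 245 and 242 in resistant cells with DMSO and 221 and 213 with DAC. The DAC-treated parental libraries stood furthest apart, and the resistant DMSO libraries lay a little above the untreated parental and the DAC-treated resistant ones. GAPDH held 73.2% of the 10-gene sum in both untreated parental libraries, 58.3% and 58.8% with DAC, and 66.3% to 68.8% in resistant cells. Including GAPDH, the sum ranged from 684 to 891 FPKM, which is 0.247% to 0.298% of the FPKM of all genes. These sums are descriptions, with no test.

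**Figure D3:**
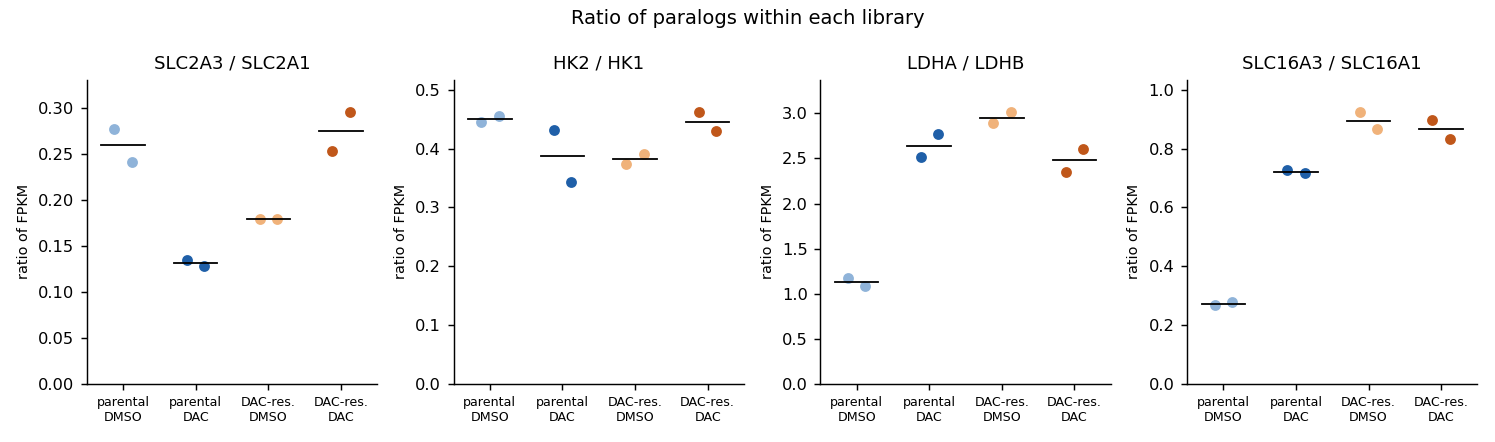
Ratio of FPKM between 2 paralogs within each of the 8 libraries (points) with the group mean (line, n = 2); every axis starts at 0. LDHA to LDHB and SLC16A3 to SLC16A1 are lowest in parental cells with DMSO, HK2 to HK1 varies little, and SLC2A3 to SLC2A1 is lowest in DAC-treated parental cells.

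Partners of 4 genes were set against them within each library, a ratio that a single scaling factor per library does not touch. LDHB encodes the subunit that favours the return of lactate to pyruvate. The ratio of LDHA to LDHB was 1.18 and 1.08 in untreated parental cells, 2.51 and 2.77 with DAC, 2.89 and 3.01 in resistant cells with DMSO and 2.35 and 2.61 with DAC. Both subunits moved, since LDHB itself was at 43.0 and 47.7 FPKM in parental cells with DMSO, 31.92 and 29.98 FPKM with DAC, and 21.8 and 21.5 FPKM in resistant cells with DMSO. SLC16A1 encodes MCT1, which carries lactate in either direction. The ratio of SLC16A3 to SLC16A1 was 0.269 and 0.277 in parental cells with DMSO and 0.728 and 0.716 with DAC. In resistant cells it was 0.924 and 0.868 with DMSO and 0.899 and 0.832 with DAC. In parental cells DAC lowered SLC16A1 (-0.50, adjusted p = 2.5e-05) and it was lower in resistant cells (-0.92, adjusted p = 2.3e-06). The ratio of SLC2A3 to SLC2A1 was 0.278 and 0.242 in untreated parental cells, 0.135 and 0.129 with DAC, and 0.180 and 0.179 in resistant cells with DMSO. With DAC the resistant cells returned to 0.254 and 0.296, within or above the untreated parental range.

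BSG encodes basigin, the chaperone that takes MCT1 and MCT4 to the cell surface. It was at 76.0 and 79.0 FPKM in parental cells with DMSO, 103 and 107 FPKM with DAC, 117 and 117 FPKM in resistant cells with DMSO and 114 and 110 FPKM with DAC. The rise was 0.43 with DAC in parental cells (adjusted p = 4.5e-05) and 0.59 in resistant cells with DMSO (adjusted p = 1.2e-05). In the list of 15 other glucose and lactate transporters 9 passed the filter. With DAC in parental cells 2 of the 9 rose, 6 fell and 1 did not pass, beside 33.6% raised and 24.1% lowered of all genes, with a median of -0.38 against 0.06. SLC2A6 (0.98) and BSG rose, and SLC2A5, a fructose transporter (-0.64), SLC2A9, a urate transporter (-0.66), and SLC16A7, which encodes MCT2 (-0.47), were among those that fell. Resistant cells with DMSO had 1 of 8 higher and 4 lower (median -0.25 against 0.02), beside 31.3% and 26.2% of all genes, with SLC2A9 at -1.33. The ninth, SLC2A10, reached 1 FPKM only in parental cells and is left out of that count, and it was listed at 0 in both resistant DMSO libraries against 1.903 and 1.438 FPKM in untreated parental cells.

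Among 19 other glycolytic enzymes, 13 passed the filter. DAC in parental cells raised 5 of them and lowered 2, beside 33.6% and 24.1% of all genes, with a median of 0.06, the same as over all genes. The 13 include PFKM, which stayed under 1 FPKM in all parental libraries. ENO2 and ENO3, the neuronal and muscle enolases, rose by 0.85 and 0.83 (adjusted p = 0.00046 and 0.00011), while ALDOC, the brain aldolase, changed by -0.99 and LDHB by -0.53. Among the abundant enzymes PGAM1, phosphoglycerate mutase, rose from 68.0 and 68.2 FPKM to 80.5 and 86.2 FPKM (0.29, adjusted p = 0.0005). TPI1, triosephosphate isomerase, was at 90.2 and 95.9 FPKM and at 97.8 and 104 FPKM with DAC (0.12, adjusted p = 0.049), a call that held in 5 of 18 alternative settings and is lost when any 1 library other than parental DMSO replicate 2 or parental DAC replicate 1 is left out. Of those that did not pass, ENO1 was at 141 and 146 FPKM in parental cells with DMSO and 148 and 153 FPKM with DAC (0.06, adjusted p = 0.14), and PGK1 gave 0.03 (adjusted p = 0.33). In resistant cells with DMSO 6 of 11 were higher than in parental cells and 2 were lower (median 0.16 against 0.02), beside 31.3% and 26.2% of all genes. ENO2 stood at 1.56 (adjusted p = 3e-05) and PFKL, the liver phosphofructokinase, at 0.53. The remaining 2 of the 13, HK3 and PFKM, reached 1 FPKM in 1 line only and so passed the filter through the line where they are high. Their levels are given here, and no result is drawn from a test between the lines. HK3, the hexokinase of myeloid cells, was at 5.82 and 5.53 FPKM in parental cells with DMSO and at 0.384 and 0.171 FPKM in resistant cells. PFKM, the muscle phosphofructokinase, stayed under 1 FPKM in all parental libraries and was at 1.43 and 1.41 FPKM in resistant cells with DMSO. DAC in resistant cells left 10 of the 13 short of the test, among them HK3, which lay at 0.171 to 0.415 FPKM there and could hardly pass. DAC lowered 3 there, where 5.35% of all genes were lowered, with TPI1 at -0.20 and PGAM1 at -0.15. Without any 1 of the 4 resistant libraries both calls are lost and at most 1 of the 13 passes.

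TXNIP and ARRDC4 encode arrestin-like proteins that remove GLUT1 from the cell surface and are induced by glucose itself. TXNIP was at 299 and 300.3 FPKM in parental cells with DMSO and 246 and 247 FPKM with DAC. Resistant cells had only 31.5 and 32.1 FPKM with DMSO and 51.1 and 53.6 FPKM with DAC, far under every parental library. That is a difference of -3.20 ± 0.027 between the lines with DMSO (adjusted p = 2e-08). ARRDC4 was at 11.2 and 10.7 FPKM in parental cells with DMSO and 1.05 and 1.16 FPKM in resistant ones (-2.51, adjusted p = 2.6e-06). They belong to 12 genes that control the flux through glycolysis, of which 5 passed the filter. With DAC, 1 of the 5 rose and 3 fell in parental cells (median -0.28 against 0.06), where 33.6% of all genes tested rose and 24.1% fell. With DMSO 3 of the 5 were lower in resistant cells and the other two did not pass (median -0.81 against 0.02), where 26.2% of all genes were lower. PFKFB3, which makes the activator of phosphofructokinase, rose with DAC in parental cells (0.45, adjusted p = 0.0062) and was lower in resistant cells (-0.81, adjusted p = 0.00044). PCK2, the mitochondrial enzyme that makes phosphoenolpyruvate, was at 12.1 and 12.6 FPKM in parental cells with DMSO and 5.13 and 5.68 FPKM with DAC, but rose from 11.7 and 12.5 FPKM to 22.0 and 22.8 FPKM in resistant cells.

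**Figure D4:**
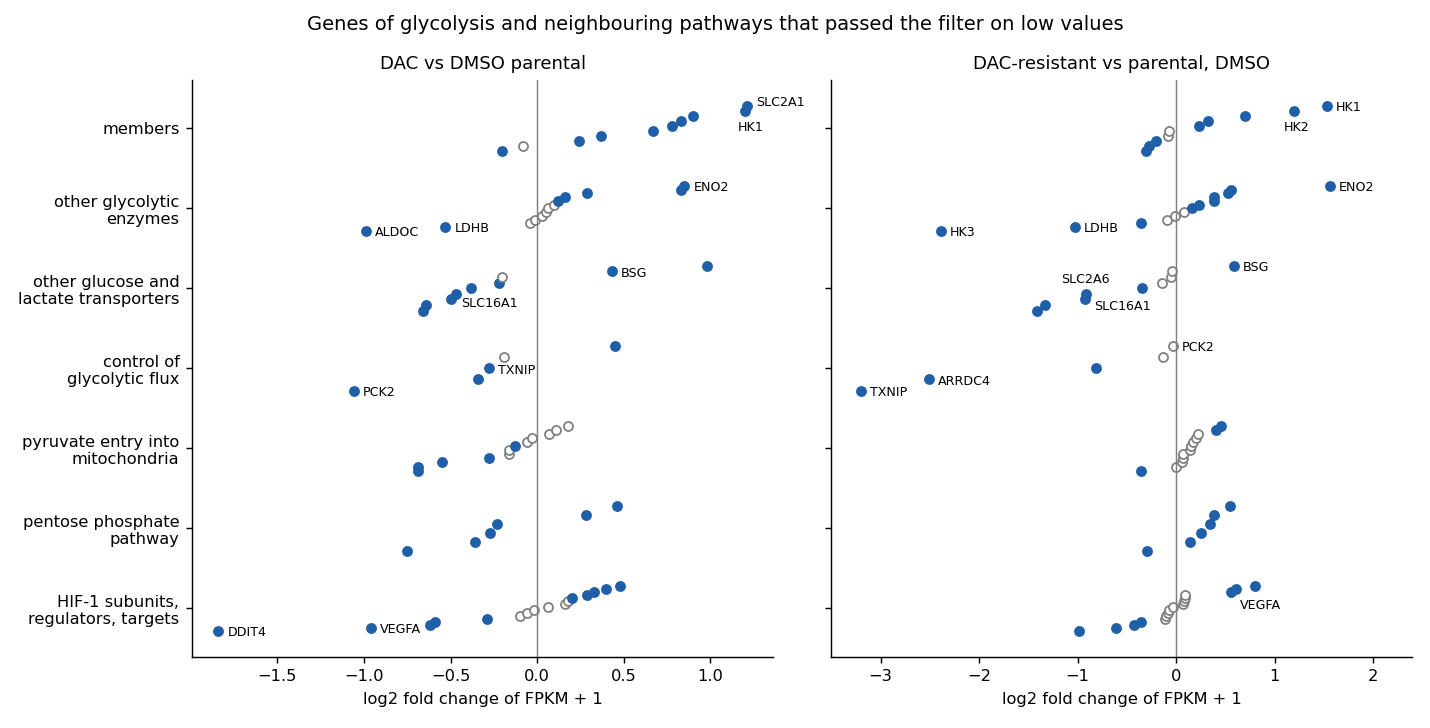
Log2 fold change of FPKM + 1 for each gene that passed the filter, by gene list, for DAC against DMSO in parental cells (left) and resistant against parental cells with DMSO (right); filled points passed limma at an adjusted p under 0.05 and the 2 horizontal axes differ in range. The 10 genes lie mostly to the right of 0 on the left side, and TXNIP at -3.20 and ARRDC4 at -2.51 are the lowest points on the right. The GAPDH point on the left turns positive under quantile normalization. HK3, PFKM and SLC2A10 on the right passed the filter through 1 line only, and their fill there is not read as a result.

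Pyruvate that is not reduced to lactate enters mitochondria through the MPC1 and MPC2 carrier and the pyruvate dehydrogenase complex, which PDK enzymes switch off. Of 14 such genes 12 passed the filter. DAC in parental cells left 7 of the 12 short of the test and lowered 5, where 24.1% of all genes were lowered (median -0.15 against 0.06). Among the 5 were MPC2 (-0.69, adjusted p = 0.00012), PDK3 (-0.69) and PDK1 (-0.55). MPC2 was at 24.5 and 24.5 FPKM with DMSO and 14.2 and 15.5 FPKM with DAC. Resistant cells with DMSO had 2 of the 12 higher, DLAT (0.46) and PDHA1 (0.41), and MPC1 lower (-0.36), beside 31.3% and 26.2% of all genes. Under DAC, 8 of the 12 were higher in resistant than in parental cells and 4 did not pass (median 0.27 against -0.03), where 32% of all genes tested were higher and 35.1% lower, with MPC2 at 1.07 and PDK1 at 0.80 (adjusted p = 1e-05 and 9.9e-05).

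The pentose phosphate pathway draws glucose 6-phosphate off for NADPH and ribose. Of its genes 6 were examined and all 6 passed the filter. With DAC in parental cells 2 rose and 4 fell (median -0.25 against 0.06), beside 33.6% and 24.1% of all genes. TALDO1 and TKT, transaldolase and transketolase, both belong to the non-oxidative branch and moved in opposite directions there. TALDO1 was at 66.2 and 70.2 FPKM with DMSO and 94.9 and 92.9 FPKM with DAC (0.46, adjusted p = 8.5e-05), and TKT at 46.3 and 46.2 FPKM with DMSO and 27.3 and 26.9 FPKM with DAC (-0.75, adjusted p = 2.9e-06). Resistant cells with DMSO had 5 of the 6 higher and PGLS lower (median 0.30 against 0.02), beside 31.3% and 26.2% of all genes.

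A list of 23 genes held the HIF subunits, their regulators and HIF-1 targets outside glycolysis, and 16 passed the filter. With DAC in parental cells 5 rose and 5 fell (median 0.02 against 0.06), beside 33.6% and 24.1% of all genes. Among the 5 that fell were VHL (-0.62, adjusted p = 0.00019) and HIF1AN (-0.29, adjusted p = 0.017), which restrain HIF-1 and are not its targets. The HIF1AN call is lost without parental DMSO replicate 1 or either parental DAC library (adjusted p between 0.064 and 0.092). HIF1A, the regulated subunit, rose by 0.40 (adjusted p = 0.0018) and NDRG1 by 0.48. VEGFA changed from 26.3 and 25.3 FPKM to 12.53 and 12.95 FPKM (-0.96, adjusted p = 1.8e-06), and DDIT4, a stress-induced inhibitor of mTORC1, from 92.2 and 93.9 FPKM to 24.7 and 25.8 FPKM (-1.84, adjusted p = 1.1e-07). In resistant cells DAC raised both, DDIT4 by 0.57 (adjusted p = 0.00054) and VEGFA by 0.43 (adjusted p = 0.0014), with 4 of the 16 raised and 12 short of the test, where 5.88% of all genes were raised. Resistant cells with DMSO had 3 of the 16 higher, NDRG1 (0.80) and VEGFA (0.61) among them, and 4 lower, with EPAS1, which encodes HIF-2 alpha (-0.99), and EGLN1, a HIF prolyl hydroxylase (-0.61), beside 31.3% and 26.2% of all genes.

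For each of the 10 genes the 2 genes outside the lists with the most similar pattern were sought among 4208 genes with a mean of at least 10 FPKM, by Pearson's r of log2(FPKM + 1) over the 8 libraries. With 8 libraries in 4 groups such values mostly reflect the order of the group means and are given as a description. SLC2A1 was closest to PLSCR1 (r = 0.999), an interferon-induced scramblase at 7.66 and 7.96 FPKM in parental cells with DMSO and 34.8 and 34.9 FPKM with DAC. PKM was closest to PLEKHM2 (0.999) and LDHA to SF3B3 (0.996). HK1 was closest to NOP10 (0.996) and HK2 to CBX3 (0.997). SLC16A3 was closest to FTL (0.998), the ferritin light chain, and SPARC (0.996), which went from 0.0272 and 0.0284 FPKM to 29.6 and 29.2 FPKM with DAC in parental cells. Among the 10 genes themselves HK1 and HK2 were the closest pair (r = 0.98), and HK2 and GAPDH ran opposite (-0.98).

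Markers of the cells moved with these groups. Of 10 markers of a monocytic leukemia line 7 were at 1 FPKM or more in all 8 libraries, and none was at 0 throughout. Their sum was 260.6 to 265.9 FPKM in parental cells with DMSO, 381.6 to 390.9 FPKM with DAC, 194.3 to 208.2 FPKM in resistant cells with DMSO and 204.7 to 211.4 FPKM with DAC. CD14 was at 1.45 and 1.58 FPKM in untreated parental cells, 19.0 and 20.8 FPKM with DAC, and 0.7497 to 1.367 FPKM in resistant cells. LYZ went from 11.4 and 12.6 FPKM to 46.7 and 48.9 FPKM with DAC in parental cells. Not all 10 moved with the sum. CD33 was at 9.92 and 9.74 FPKM in parental cells with DMSO and lower with DAC, at 8.10 and 7.61 FPKM. CEBPA, a myeloid transcription factor, was at 78.4 and 82.9 FPKM in parental cells with DMSO and no lower in resistant ones, at 92.9 and 84.1 FPKM. The part of these markers in the changes of the 10 genes was not tested, and in bulk RNA a change in the number of cells of a type and a change in RNA per cell cannot be told apart. The 4 T cell markers were under 1 FPKM in every library. Markers of plasma and B cells summed to 5.35 to 8.56 FPKM over 5 genes in the table, and those of erythroid cells to at most 3.09 FPKM. That highest erythroid sum was in resistant DMSO replicate 1, where HBB was at 2.94 FPKM, against 0.153 FPKM in replicate 2. Markers of epithelial and stromal cells summed to 18.4 to 64.4 FPKM, with EPCAM under 0.1 FPKM in every library. PECAM1, which monocytes also express, held 88.9% to 98.3% of that sum in parental and 72.6% to 75.6% in resistant cells. Most of the rest was COL1A1, a collagen chain, at 0.693 and 0.641 FPKM in parental cells with DMSO, 4.61 and 4.06 FPKM with DAC, 6.14 and 6.12 FPKM in resistant cells with DMSO and 4.56 and 4.39 FPKM with DAC.

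With DAC in parental cells 58.2% of all genes called were higher, against 46.4% under upper-quartile and 45.1% under quantile normalization, which also moved the median of all genes from 0.057 to -0.053. For DAC in resistant cells that share was 52.4%, and 66% with TPM, and for the difference between the effects 42.4%, with 52.9% and 53.8% under upper-quartile and quantile normalization, the latter moving the median from -0.053 to 0.051. Between the lines with DMSO it was 54.4%, with 61% under TPM and 44.7% under upper-quartile scaling, and between the lines with DAC 47.7%, with 56.4% under TPM and 53.8% under quantile normalization. Under each of these 3 scalings all 8 genes that DAC raised in parental cells stayed above 0, while SLC2A3 and ALDOA no longer passed under upper-quartile and quantile normalization.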

How the data were processed

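The authors trimmed the reads with cutadapt 1.9.1, aligned them to hg38 with HISAT2 2.1.0, sorted them with SAMtools 1.6 and counted them with HTSeq 0.13.5 on Ensembl genes, per the study's methods and the submitters' processing notes. The Ensembl release, the strand setting and the computation of FPKM are not given in the sources used here. The authors deposited FPKM multiplied by 1000 for each of the 8 libraries, and the values were divided by 1000 here. With exon lengths of GENCODE release 44, between 89.4% and 90% of low values in a library fell on whole reads (within 0.02 of a read), which gave the depth. Unlike the deposited unit, these reads are approximate where an annotation differs.

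Log2(FPKM + 1) values entered a linear model of 4 group means (limma 3.58.1 under R 4.3.3), with variances moderated along a trend (4 residual and 2.5 prior degrees of freedom), and tested two-sided. Samples were grouped by their labels, and no label gives a batch. FPKM are shares of a library, so a change is relative to all RNA. Fits were tested on simulated data, and no result of that is given here. Alternatives were a pseudocount of 0.1, no filter, a mean of at least 5 FPKM, 3 other scalings, a block for the replicate number, fits of only the 2 groups compared, no variance trend, the study's volcano thresholds, voom on recovered reads and each library left out. A fit with 1 library left in a group assumes that it varies like the others.

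The 10 genes and the lists were chosen with earlier results of these data known, and 1 gene of the pentose phosphate list is not reported here. Named from the lists were paralogs of the 10 genes and, per list and comparison, the 2 largest rises and falls that passed without overlap. ENO1, PGK1, PGAM1, TPI1, PDK1, VHL, HIF1AN, the single markers named and, between the lines, PFKFB3 were added after their values were seen, as were genes named only for a difference between the DAC effects. Promoters are from RefSeq.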

Additional observations from a re-analysis of the deposited data

Results flagged for a closer look

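The values here were marked because the effect of DAC differed between resistant and parental cells by limma's test of that difference, over the 14899 genes tested, at an adjusted p under 0.05. Each value is the log2 change in resistant cells minus that in parental cells. Groups of 2 libraries are too small to look for a library that stands apart.

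Among the 10 genes the differences were -1.44 for HK1, -1.35 for SLC2A1, -1.02 for PKM, -0.93 for HK2, -0.82 for LDHA, -0.82 for SLC16A3 and -0.50 for ALDOA. GAPDH had 0.20, which becomes -0.27 under quantile normalization.

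Among other enzymes ALDOC had 0.65, LDHB 0.63, ENO2 -0.96, ENO3 -0.93, PGAM1 -0.43, TPI1 -0.32, PFKL -0.18 and PGK1 -0.15. The call of a TPI1 rise with DAC in parental cells held in 5 of 18 alternative settings. Among transporters SLC2A9 had 0.93, SLC16A1 0.56, SLC16A7 0.42, SLC2A5 0.39, SLC2A6 -1.12 and BSG -0.49. PCK2 had 1.9, TXNIP 0.98 and PFKFB3 -0.42. Of the genes of pyruvate entry MPC2 had 0.91, PDK1 0.73, PDK3 0.48, MPC1 0.38 and DLD 0.28. In the pentose phosphate pathway TKT had 0.52, PGD 0.33, PGLS 0.30, RPIA -0.41 and TALDO1 -0.44. Of the HIF list DDIT4 had 2.41, VEGFA 1.39, MXI1 0.94, VHL 0.75 and NDRG1 -0.58. DDIT4, VEGFA, PCK2, TXNIP and MXI1 fell with DAC in parental cells and rose in resistant ones, with both changes past the test and no overlap of replicates. The MXI1 rise is lost without resistant DAC replicate 1 or 2 (limma adjusted p = 0.062 and 0.078). HK1, LDHA, PKM, PGAM1 and TPI1 did the reverse, and of their falls in resistant cells that of PKM alone passes with any 1 library left out.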

How the results depend on the processing

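Of the 50 member values (10 genes in 5 comparisons) all 50 kept their direction and call with a pseudocount of 0.1 and 44 without a filter; 39 did so with TPM, 43 with upper-quartile and 39 with quantile normalization, 46 without a variance trend, 49 with voom and between 41 and 47 with 1 library left out. With only the groups compared it was 35 of 40, and with a mean of at least 5 FPKM 45 of 45, as SLC2A3 is too low. By the volcano thresholds 2, 0, 2, 2 and 3 of the 10 genes were called for DAC in parental cells, DAC in resistant cells, the lines with DMSO, the lines with DAC and the difference of effects. For DAC in resistant cells the count of 4 was 1 without a filter, 2 with only the groups compared, 2 without a trend, and 1 to 4 with 1 library left out; elsewhere it was 7 to 9, 7, 5 to 7 and 7 to 8. Replicate numbers did not pair the samples (correlations of deviations between -0.022 and 0.02), and the replicate block left 9, 3, 7, 7 and 8 of the 10 genes past the test. It lost HK1 with DAC in resistant cells and SLC2A3 between the lines with DMSO, and called 8364, 1247, 8375, 9820 and 7059 of all genes.

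Signs turned in values given or counted here. With DAC in parental cells and for the difference, GAPDH passed with one sign under quantile normalization and with the opposite sign under the other settings. With TPM these were SLC2A3 (0.003), PFKP (0.016), GAPDH (0.012) and SLC16A3 (0.007) between the lines with DAC, HK2 (0.001), GAPDH (0.022) and PFKL (0.006) with DAC in resistant cells, and PFKP (0.029) for the difference of effects. Quantile normalization turned GAPDH (0.215) and PFKM (-0.185) with DAC in parental cells, SLC2A14 (0.031) between the lines with DMSO, BSG (-0.10) between the lines with DAC, and PFKP (0.092), GAPDH (-0.267) and HK3 (0.063) for the difference, where upper-quartile scaling gave 0.079 for PFKP and 0.055 for HK3. HK3 was also turned there by a pseudocount of 0.1 (0.104) and voom (0.176). With 1 library left out, values with DAC in resistant cells ranged across 0 for HK2 (-0.081 to 0.029), GAPDH (-0.032 to 0.017), SLC16A3 (-0.035 to 0.055), HK3 (-0.059 to 0.181) and PFKL (-0.065 to 0.021). So did ALDOA between the lines with DMSO (-0.17 to 0.038), HK3 with DAC in parental cells (-0.05 to 0.258), and PFKP (-0.048 to 0.0002) and HK3 (-0.197 to 0.111) for the difference. The cause was not tested. Over all genes, 8593, 1673, 8574, 9989 and 7350 were called in the 5 comparisons, and 1387, 35, 1300, 2154 and 1583 by the volcano thresholds. A mean of at least 5 FPKM, which tests only 7239 genes, gave 5181, 1970, 5161, 5698 and 4732. With DAC in resistant cells no filter gave 831, only the groups compared 434, no trend 998 and voom 2737. No alternative varied the depth. SLC2A3 rested on 480 to 710 recovered reads per library, and GAPDH on 33852 to 45054.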
